A study of Mus musculus with 4 samples.

Results

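Dnmt1, Uhrf1, Hells, Ezh2, Dnmt3a, Dnmt3b, Tet1, Tet2 and Tet3 encode enzymes that copy, write or remove methyl marks on DNA and on histone H3, or that help to copy them. All probe sets whose platform annotation names exactly 1 gene, and that gene among these 9, were taken, which gave 23 of the 34945 single-gene probe sets and 9 of 18193 named genes. The genes were chosen by name, with no measured value in the rule but with earlier results of these data known. Expression was measured on 4 arrays of mouse CD4+ (helper) T lymphocytes, isolated as naive cells from spleen with peripheral and mesenteric lymph nodes. All cultures ran for 7 days with the T cell mitogen concanavalin A (2.5 ug/ml) and 10% serum, and all received human TGFb1 (hTGFb1) at 1 ng/ml, the cytokine that steers naive CD4+ cells towards a regulatory fate. The control group (2 arrays) had TGFb1 alone, and the treated group (2 arrays) had TGFb1 plus the steroid hormone progesterone at 2000 ng/ml. The labels give no strain, sex, age, number of animals or statement that replicates were separate cultures, so the spread behind each p-value is that between these arrays and may be technical. Cells that never received TGFb1 were not analysed here.

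When DNA is replicated, the new strand carries no methyl groups, and a maintenance system restores them. UHRF1 reads the half-methylated site and brings in the maintenance methyltransferase DNMT1, while HELLS, a chromatin remodeller, opens packed DNA to it, and EZH2, the catalytic subunit of Polycomb repressive complex 2 (PRC2), renews H3K27 methylation on the new histones. DNMT3A and DNMT3B place methyl groups at sites that had none, and TET1, TET2 and TET3 oxidise 5-methylcytosine as a step towards its removal. In CD4+ T cells these systems are best known for setting the methylation of cytokine genes and of Foxp3, the gene of the regulatory lineage factor.

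The maintenance genes were lower with progesterone, and no de novo or TET probe set passed the test. Of 9 maintenance probe sets 8 were bright enough to be tested, and 6 of the 8 fell, at least 1 for each of the 4 genes, with a median log2 difference of -1.06. Of 14 de novo and TET probe sets 11 were tested, none passed in either direction, and the median was -0.01. Over all 22518 tested probe sets the median was 0.03, with 3.74% called lower, 2.4% called higher and 6.14% called in either direction. The count of maintenance calls rested on particular arrays, with 2 calls left without progesterone replicate 1, 2 without progesterone replicate 2, 3 without TGFb1 replicate 1 and 7 without TGFb1 replicate 2. Ezh2 and the brighter Uhrf1 probe set passed in all of these. By their brightest probe set 3 of the 4 genes (Uhrf1, Hells and Ezh2) passed with a fall of 1 or more, against 2.94% of all 10512 genes tested. Signals are given for replicate 1 and then replicate 2. A difference is the progesterone mean minus the control mean of log2(signal + 16), after quantile normalisation, with its limma standard error (SE, n = 2 per group), and adjusted p is Benjamini-Hochberg over all tested probe sets with a threshold of 0.05.

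**Figure D1:**
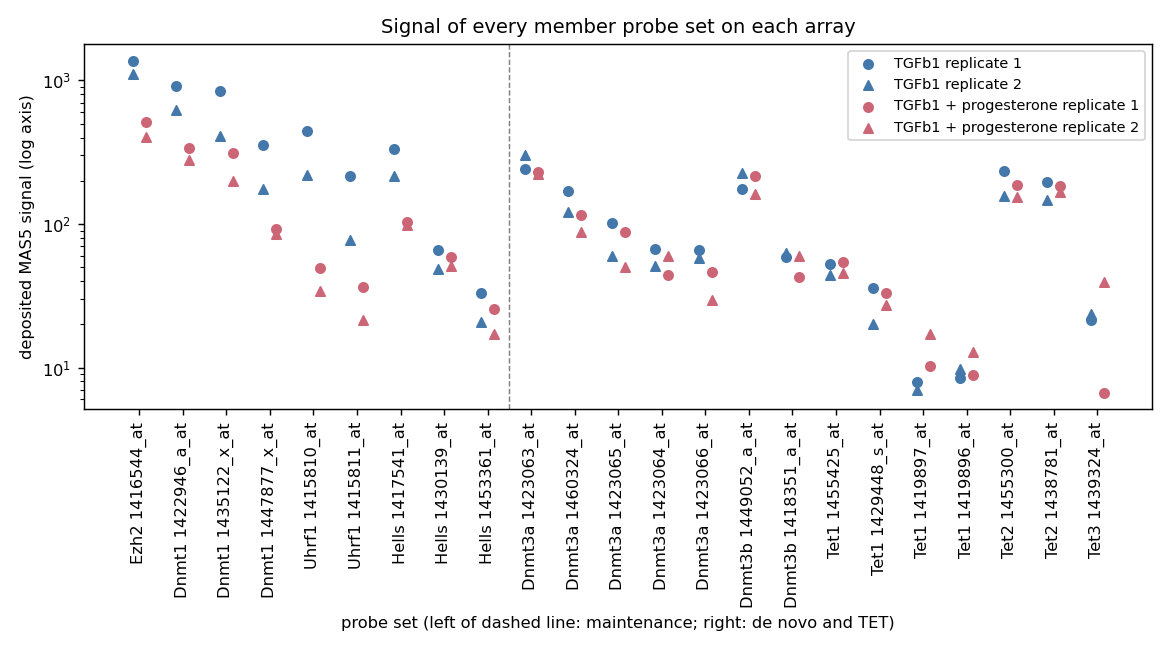
Deposited signal (log axis) of all 23 probe sets of the 9 genes on each of the 4 arrays, TGFb1 in blue and TGFb1 plus progesterone in red, with circles for replicate 1 and triangles for replicate 2. The arrays with progesterone lie below both TGFb1 arrays for 7 of 9 maintenance probe sets, left of the dashed line, and for 3 of 14 probe sets right of it, against 37.9% of all tested probe sets on this scale.

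The groups differed in more than these genes, and no part that this played in the results below was tested. The mean signal (2% trimmed at each end) was 155.4 and 146.2 without progesterone and 138.5 and 108.3 with it. The median signal differed the other way, at 23.69 and 23.6 without progesterone and 30 and 24.51 with it. Xist, the RNA of the inactive X chromosome, had signals of 9.52 and 9.70 without progesterone and 1389.9 and 825 with it. The Y-linked gene Eif2s3y had 689 and 727 against 4.25 and 0.49. These are the values of male cells without progesterone and of female cells with it, although the labels give no sex. Treatment and the sex of the cells therefore cannot be told apart for any gene here, the 9 chosen genes included. Of 7 CD4+ T cell markers 0 passed the limma test in either direction. Cd4, Cd2 and Cd5 were lower, at -0.34, -0.22 and -0.21 (adjusted p of 0.0956, 0.0893 and 0.158). Cd3d, the brightest, and Cd3e, Cd3g and Cd28 were at 0.05 to 0.13 (adjusted p of 0.455 to 0.669). The summed signal of the 7 was 29877 to 32361 without progesterone and 20429 to 26050 with it. All 3 platelet markers rose (Pf4 by 3.12, Ppbp by 1.25 and Itga2b by 1.06), while the red cell markers Hba-a1 and Alas2 of the same list were too dim to be tested (summed signal of the 5 genes 170 to 199 against 812 to 852). Of the myeloid list, 1 of 5 tested markers rose (summed signal 193 to 380 against 807 to 892, Lyz2 up by 2.69). The other tested myeloid markers did not pass and ran from -0.81 (Itgam) to 0.66 (Cd68) by brightest probe set. For mast cell and basophil markers 1 of 5 rose, Kit (summed signal 1074 to 1730 against 1221 to 1238, with the brightest, Cpa3, at -0.33 and an adjusted p of 0.393). Of 3 tested B cell markers only Ighm fell, by 0.92 in its brightest probe set, with its other probe sets up to 0.20, and it made up most of the list's summed signal (3915 to 4154 against 1421 to 1906). Cd79a was at 0.71 (adjusted p = 0.267) and Cd79b at 0.16 (adjusted p = 0.755). Of the 2 tested members each of the CD8, natural killer and dendritic cell lists 0 passed by the brightest probe set (Cd8b1 at -0.31, Eomes at -0.76 and Zbtb46 at 0.04). A dimmer Eomes probe set passed, at -1.11. No marker of any of these lists was at 0 on all arrays. In bulk RNA, fewer cells of a type and less RNA per cell cannot be told apart.

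The maintenance genes and the de novo and TET genes were also compared by promoter sequence. No motif was used in the selection, but the maintenance genes were grouped by their link to replication. Whether the matches had any part in the changes was not tested. RefSeq windows (GRCm38.p6) from 250 bases before to 50 bases after each annotated start were searched on both strands for the binding motif of the E2F factors, which drive genes of DNA replication, in 4 spellings: TTTCCCGC, TTTGGCGC, TTTCGCGC and TTTGCCGC. A match occurred in 4 of the 7 windows of the maintenance genes, in at least 1 window of each of the 4 genes, and in 0 of the 7 windows of the 5 de novo and TET genes. Of all 32851 windows 2.26% held a match. The median GC content was 64.3% in the maintenance windows, 76% in the others and 52.7% over all windows. The matches are shown in 30 bases of the gene's own strand, with the motif (or its reverse complement) in capitals.
Dnmt1, chr9:20952824-20952853, minus strand: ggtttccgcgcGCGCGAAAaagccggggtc
Dnmt1, chr9:20952574-20952603, minus strand: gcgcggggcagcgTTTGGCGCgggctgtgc
Uhrf1, chr17:56304117-56304146, plus strand: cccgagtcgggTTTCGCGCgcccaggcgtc
Hells, chr19:38930917-38930946, plus strand: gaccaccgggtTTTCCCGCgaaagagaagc
Ezh2, chr6:47595009-47595038, minus strand: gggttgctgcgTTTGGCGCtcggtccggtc

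The first motif base lay at -62 from the start in Hells and at 4, just inside the transcript, in Ezh2. In Uhrf1 it lay at -185 from the second of 2 starts, which is 791 bases inside the transcript that begins at the first. The Dnmt1 matches lay at -219 and 34 from the last of 3 starts, and 137 and 389 bases beyond the middle one. The cell cycle homology region (CHR), a promoter element of mitotic genes written as TTTGAA or TTCGAA on either strand, had 1 match in 7 maintenance windows (Dnmt1) and 1 in 7 others (Dnmt3b), against 19.2% of all windows, and overlapped no E2F match in them. Among other genes with a tested probe set and a window, 34 of 424 with an E2F match fell (8.02%) and 376 of 8155 without one fell (4.61%). A match describes letters in a window and does not show that a factor bound there.

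Uhrf1, the reader of half-methylated DNA, had the lowest log2 difference of all 19 tested member probe sets. Its brighter probe set (1415810_at) had deposited signals of 441 and 218 without progesterone and 49.0 and 34.1 with it. Both progesterone arrays lay far below both TGFb1 arrays, and the TGFb1 arrays also differed from each other. The difference was -2.42 ± 0.27 (SE, n = 2 per group; adjusted p = 0.00273), a 5.34-fold fall on this scale. The second probe set (1415811_at) read 216 and 77.5 against 36.7 and 21.4 and fell by 1.72 ± 0.37 (adjusted p = 0.0334). That call passed with all arrays and without TGFb1 replicate 2, and was lost without each of the other arrays (-1.08 without TGFb1 replicate 1, -1.92 without progesterone replicate 1 and -1.61 without progesterone replicate 2, with adjusted p of 0.0801, 0.104 and 0.205).

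Ezh2, the H3K27 methyltransferase, had 1 probe set (1416544_at). Its signals were 1374 and 1108 without progesterone and 510.0 and 405 with it. The replicates of each group lay close together and the groups lay well apart. The difference was -1.04 ± 0.11 (adjusted p = 0.00234), a 2.06-fold fall, and it ran from -1.14 to -0.93 when single arrays were left out, with each of these passing.

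Dnmt1, the maintenance methyltransferase itself, had 3 probe sets. The brightest (1422946_a_at) read 910.2 and 618 without progesterone and 339 and 281 with it, with no overlap, and fell by 0.92 ± 0.16 (adjusted p = 0.0162), a 1.89-fold fall. The dimmest (1447877_x_at) read 355 and 176 against 92.1 and 84.9 and fell by 1.17 ± 0.27 (adjusted p = 0.0437). The third (1435122_x_at) read 846 and 413 against 311 and 198. Its groups did not overlap either, but the TGFb1 arrays lay further apart than in the brightest set, and at -0.90 ± 0.27 it did not pass (adjusted p = 0.102). The suffix _x_at marks probe sets whose probes can also match other transcripts. The brightest set was not called without progesterone replicate 1 (-0.88, adjusted p = 0.121) or progesterone replicate 2 (-0.97, adjusted p = 0.127). The dimmest was not called without either of these (-1.09 and -1.28) or without TGFb1 replicate 1 (-0.72), whereas the third was called without TGFb1 replicate 2 (-1.34, adjusted p = 0.00199).

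Hells, the chromatin remodeller, gave unlike values in its 3 probe sets. The brightest (1417541_at) read 330.4 and 214 without progesterone and 103 and 97.6 with it and fell by 1.08 ± 0.20 (adjusted p = 0.0202), a 2.12-fold fall. It was not called without TGFb1 replicate 1 (-0.81, adjusted p = 0.0514), progesterone replicate 1 (-0.98, adjusted p = 0.134) or progesterone replicate 2 (-1.22, adjusted p = 0.102). The second (1430139_at) read 65.7 and 48.8 against 59.2 and 50.9, so that its groups overlapped, at -0.01 ± 0.21 (adjusted p = 0.982). The 95% interval of this set, -0.49 to 0.47, lay above that of the brightest set, -1.55 to -0.62. The last (1453361_at) was too dim to be tested, with 33.1 and 20.7 against 25.7 and 17.2. Which part of the transcript each set detects was not determined here.

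**Figure D2:**
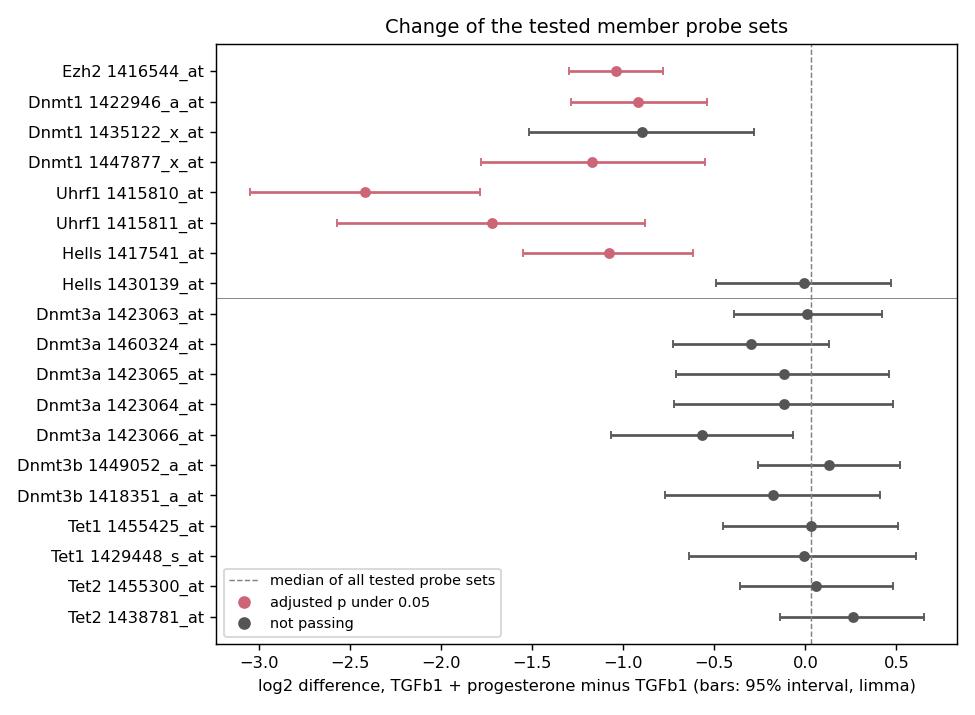
Log2 difference (progesterone minus TGFb1 alone) with its 95% interval from limma for the 19 tested probe sets of the 9 genes, red where the adjusted p was under 0.05. Of the 8 maintenance probe sets above the horizontal line 6 are red, and the 11 de novo and TET probe sets below it lie between -0.57 and 0.26.

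Dnmt3a, which methylates new sites, had 5 probe sets, none of which passed. The brightest (1423063_at) read 242 and 303 without progesterone and 231 and 222 with it, and its normalised values overlapped, at 0.01 ± 0.17 (adjusted p = 0.973). Its 95% interval, -0.39 to 0.42, lay above that of the brightest Dnmt1 set, -1.29 to -0.54. These intervals are for single probe sets and are not adjusted for their number. The lowest (1423066_at) read 65.9 and 58.4 against 46.6 and 29.5, with no overlap, at -0.57 ± 0.22 (adjusted p = 0.184). The others were at -0.30 (1460324_at, 171 and 121 against 115 and 88.0), -0.12 (1423065_at, 102 and 60.3 against 87.9 and 50.4) and -0.12 (1423064_at, 67.3 and 51.3 against 44.5 and 60.0). Only 1460324_at and 1423066_at had normalised groups that did not overlap, both lower, whereas 8 of the 9 maintenance probe sets did so. Of all tested probe sets 24.1% were lower without overlap and 53.3% did not overlap in either direction.

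Dnmt3b, its relative, had 2 probe sets. The brighter (1449052_a_at) read 175 and 227 without progesterone and 217 and 161 with it, with the groups interleaved, at 0.13 ± 0.17 (95% interval -0.26 to 0.52, adjusted p = 0.705). The dimmer (1418351_a_at) read 59.3 and 62.6 against 42.9 and 59.4, at -0.18 ± 0.26 (adjusted p = 0.733).

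Of the demethylating enzymes Tet2 had 2 probe sets, both tested. They read 233 and 158 against 187 and 154 (1455300_at, 0.06 ± 0.18, adjusted p = 0.889) and 196 and 146 against 184 and 167 (1438781_at, 0.26 ± 0.17, adjusted p = 0.439). The arrays of both groups overlapped in each. Tet1 had 4 probe sets, of which 2 were tested: 1455425_at read 52.6 and 44.2 against 54.7 and 45.3 (0.03 ± 0.21, adjusted p = 0.952), and 1429448_s_at read 35.9 and 20.2 against 33.2 and 27.1 (-0.01 ± 0.27, adjusted p = 0.985). The remaining Tet1 sets were dim, with 7.97 and 7.01 against 10.3 and 17.1 (1419897_at) and 8.50 and 9.76 against 8.82 and 12.9 (1419896_at). Tet3 had a single dim probe set (1439324_at), also untested, at 21.5 and 23.7 without progesterone and 6.67 and 39.4 with it, which span both TGFb1 values. For 10 of the 11 tested de novo and TET probe sets the 95% interval lay above -1 on the log2 scale used. The exception was Dnmt3a 1423066_at, whose interval reached -1.07. Because this scale understates changes of dim genes, a limit above -1 does not exclude a 2-fold fall in signal for the dim sets. Among these, the interval reached -0.77 for Dnmt3b 1418351_a_at and -0.64 for Tet1 1429448_s_at.

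The TGFb1 arrays differed from each other in the maintenance genes. After normalisation TGFb1 replicate 1 exceeded replicate 2 in all 9 maintenance probe sets (median difference 0.51), in 9 of 14 de novo and TET probe sets (median 0.12) and in 49% of all tested probe sets (median -0.01). It also did so in 15 of 15 proliferation genes, a reference list of replication and mitosis genes (median 0.35). Between the progesterone arrays the maintenance probe sets had no common order, with replicate 1 higher in 4 of 9 (median -0.03), whereas it was higher in 13 of 15 proliferation genes (median 0.17). Of the 15 proliferation genes 10 fell between the groups and none rose, against 4.79% lower of all genes by brightest probe set. The median was -1.06 and the range -3.04 to -0.07. By moderated t the first 3 were Birc5 (-3.04 ± 0.27), Mki67 (-2.66 ± 0.26), the Ki-67 antigen gene, and Rrm2 (-2.64 ± 0.27), a ribonucleotide reductase subunit gene. The 5 that did not pass were Tyms (-0.81), Pcna (-0.61), Mcm4 (-0.36), Mcm6 (-0.14) and Mcm2 (-0.07). The summed signal of the list was 18690 to 28519 without progesterone and 5450 to 8462 with it. This list was chosen with earlier results of these data known, and its part in the maintenance result was not tested.

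Other genes of these pathways were read from 9 lists by role, 1 probe set per gene, the brightest. Of 71 tested genes 10 fell, the Y-linked Uty among them, 1 rose and 60 did not pass, with a median of -0.02. Over all 10512 genes so represented 4.79% were lower, 2.69% higher and 7.48% called in either direction. With each array centred on its median, where all tested probe sets had a median of -0.28, pathway calls were 55 lower and 0 higher by probe set, against 12 lower and 2 higher of 152 probe sets here. With X and Y genes left out, pathway calls were 10 lower and 2 higher of 132 probe sets. Without progesterone replicate 2 they were 3 and without progesterone replicate 1 they were 5, all of them lower.

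Among 11 partners of maintenance methylation 2 fell. Pclaf, which encodes a factor that binds the sliding clamp PCNA at the fork, had signals of 2861 and 1281 without progesterone and 400 and 217 with it (-2.29 ± 0.30, adjusted p = 0.00485). Its dimmer probe set, at -0.73, did not pass. Lig1, the gene of the ligase that joins Okazaki fragments, had 479 and 424 against 224 and 170.1 (-0.87 ± 0.13, adjusted p = 0.00826). In both genes the groups were apart. Pcna was at -0.61 ± 0.16 (adjusted p = 0.062), and Cdca7, the gene of a HELLS partner, at -0.47 ± 0.15 (adjusted p = 0.123). Usp7, whose product deubiquitinates UHRF1 and DNMT1, was at -0.09 ± 0.11 with its 7 probe sets between -0.16 and 0.24. Cdca7 and Usp7 fall outside the naming rule and were picked for their role after their values were seen. Of 11 genes for chromatin assembly behind the fork the histone chaperone gene Asf1b fell (-1.56 ± 0.26, adjusted p = 0.0136) and 10 did not pass.

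Ezh2 was the only PRC2 gene examined whose brightest probe set passed. Of the 10 other PRC2 genes 0 passed by limma (lowest -0.48, highest 0.46, median 0.01). Suz12 and Eed, the subunits that EZH2 needs for activity, were at 0.01 ± 0.12 (adjusted p = 0.984) and 0.02 ± 0.11 (adjusted p = 0.941), with 95% intervals of -0.27 to 0.28 and -0.24 to 0.28, both above the Ezh2 interval of -1.30 to -0.78. Signals were 1164 and 881 against 885 and 680.0 for Suz12, and 1120 and 887 against 875 and 682 for Eed. Dimmer probe sets of Suz12 reached -0.80, and 1 of 4 probe sets of the histone-binding gene Rbbp4, which also serves in chromatin assembly, passed as a fall while its brightest was at -0.03. Of the H3K27 demethylase genes, Kdm6b was at 0.28 ± 0.15 (adjusted p = 0.305). The Y-linked Uty fell from 149.9 and 174 to 1.42 and 3.15 (-3.20 ± 0.23), and its X-linked counterpart Kdm6a was at 0.48 ± 0.12 (adjusted p = 0.0613), genes that share the sex-linked difference described above.

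**Figure D3:**
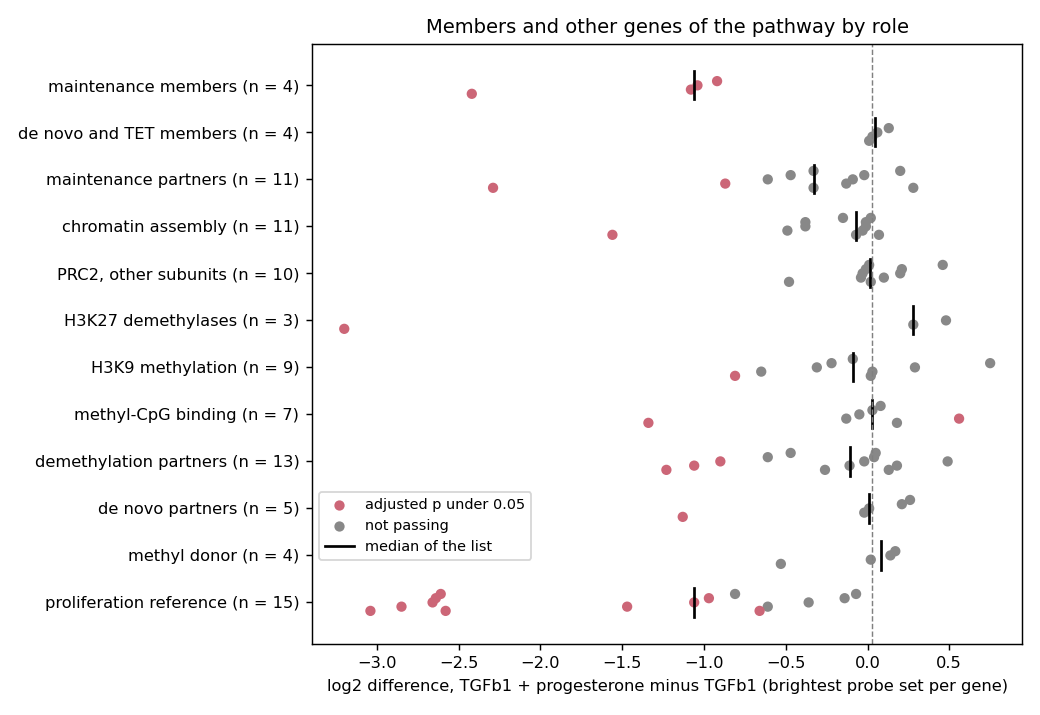
Log2 difference of the brightest tested probe set of each gene, by role, for the members, the 9 pathway lists and the proliferation reference list. Red points passed the test, black bars are list medians and the dashed line is the median of all tested probe sets. The medians of the maintenance members and of the proliferation list are both -1.06, and those of the pathway lists lie between -0.33 and 0.28.

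Among 9 genes of H3K9 methylation and its readers Cbx5, the HP1 alpha gene, fell (-0.81 ± 0.19, adjusted p = 0.0463). Its other probe sets, up to -0.29, did not pass. Among 7 methyl-CpG binding genes the DNA glycosylase gene Mbd4 fell, from 255 and 175 to 77.8 and 54.9 (-1.34 ± 0.20, adjusted p = 0.008), with its other probe sets up to -0.32. The zinc finger gene Zbtb4 rose, from 317 and 288 to 397 and 336 (0.56 ± 0.13, adjusted p = 0.0426), and was the only pathway gene to do so. Of 13 partners of demethylation 3 fell. They were the RNA-editing deaminase gene Apobec1 (-1.23 ± 0.19, adjusted p = 0.0111), the stress gene Gadd45b (-0.90 ± 0.16, adjusted p = 0.0169) and the isocitrate dehydrogenase gene Idh1 (-1.06 ± 0.23, adjusted p = 0.0377), whose cytosolic product makes the 2-oxoglutarate that TET enzymes consume. The dimmer probe sets of Gadd45b, up to -0.34, and of Idh1, at -0.79, did not pass. Of 5 partners of de novo methylation the H3K36 methyltransferase gene Nsd2 fell (-1.13 ± 0.20, adjusted p = 0.0166, other probe sets up to -0.22), and of 4 methyl donor genes 0 passed by limma, the lowest being Ahcy at -0.53 (adjusted p = 0.149).

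The 5 genes whose 4-array profile lay nearest to the brightest Dnmt1 set, by Euclidean distance between centred log2 values, were Psmc3ip, Ms4a4c, Nap1l1, Dut and Stard4, with differences of -0.95 to -0.88. Dut encodes the dUTPase that keeps uracil out of new DNA and Nap1l1 a nucleosome assembly chaperone. Nearest to Ezh2 were Tctex1d2, Fam110a, H2az2, Ctc1 and Srebf2 (-1.09 to -1.04), and nearest to Dnmt3b were Nudt6, Naaa, Zfp276, Saysd1 and Syt11 (0.12 to 0.15). With 4 arrays such nearness says little more than that the group difference is of like size.

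**Figure D4:**
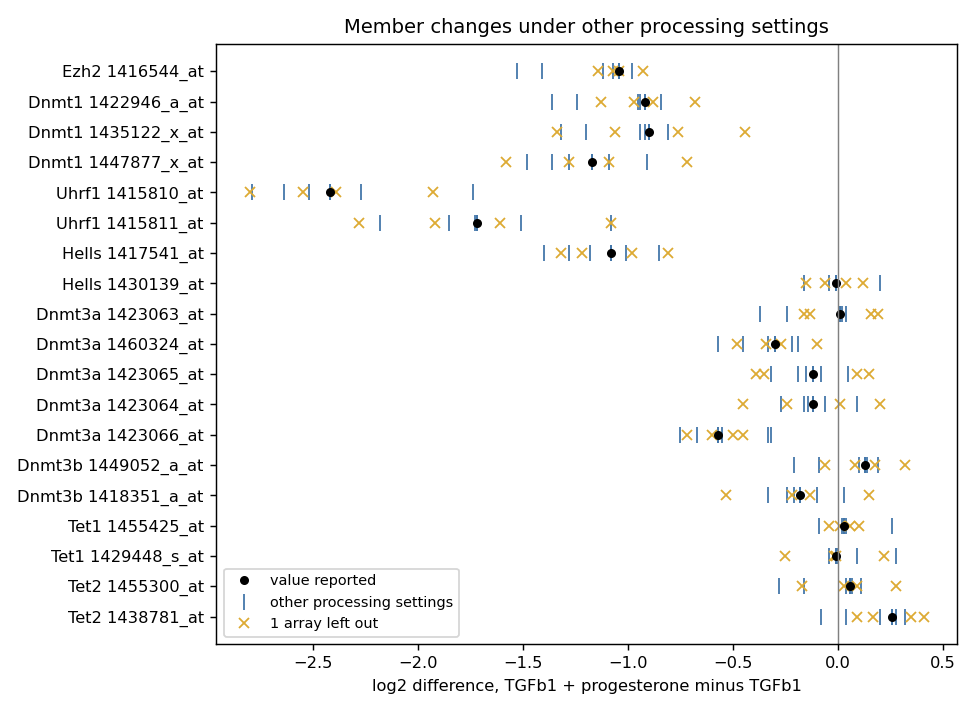
Log2 difference of each tested member probe set as reported (black), under other processing settings (blue bars) and with 1 array left out (yellow crosses). The 7 lower maintenance probe sets stay below 0 throughout, with the value nearest 0 at -0.44 for Dnmt1 1435122_x_at, whereas 9 of the 11 de novo and TET probe sets have values on both sides of 0.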

How the data were processed

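Signal intensities of 45101 probe sets on 4 arrays were used, on a linear scale. Per the submitters' processing notes the authors made these intensity values with MAS5, with no version, and the sources used here do not give the scaling. The arrays' number limits the precision (2 residual degrees of freedom). Trimmed means differed by more than 5% (ratio 1.43), so arrays were quantile normalised, the 64 control probe sets dropped, and probe sets with a mean above the median kept (22518), which removed 4 member probe sets. Values were log2(signal + 16), which understates changes of dim genes. The test was limma 3.58.1 in R 4.3.3 (lmFit, eBayes with intensity trend), with 95% intervals from its moderated t distribution. On simulated arrays for this comparison with 22518 probe sets it recovered 14.9% of 1.5-fold, 68.7% of 2-fold and 100% of 4-fold changes. Of the calls made there 6.15% were false. The simulated noise was normal, independent between probe sets and drawn from the moderated variances of the fit, so recovery on real arrays may be lower. Symbols came from the platform annotation, updated through RefSeq (34741 matched). Members, lists and alternatives were chosen with earlier results of these data known. Genes named by rule were all members, up to 3 passing genes per role list by moderated statistic, some fixed genes, each marker list's brightest gene and the 5 nearest profiles. Other marker, pathway and proliferation genes in the text, such as Kit, Cd79a, Kdm6a, Ahcy and Rbbp4, fall outside this rule and were named with their values known. The naming of Xist and Eif2s3y, and the alternative without X and Y genes, were chosen after seeing the data.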

Additional observations from a re-analysis of the deposited data

How the results depend on the processing

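The maintenance count of 6 was between 4 and 7 with 13 of the 19 alternatives, including the values as deposited (7 of 8 lower). Leaving out X and Y genes also gave 6, but it only removed those probe sets from the test. The log2 differences of the members stayed as they were, so this alternative cannot address the sex-linked difference between the groups. It was 2 at a threshold of 0.01, with no filter and with eBayes without trend, and 2 to 7 when single arrays were left out. No de novo or TET probe set passed under any alternative. All probe sets changed numbered 486 at a threshold of 0.01, 2228 at 0.1, 5540 with median centring, 539 with no filter, 481 without trend, 879 with 1 probe set per gene and 335 to 1659 without single arrays. Rises and falls were 541 and 842 as reported, 290 and 1314 as deposited, and 282 and 5258 with median centring. Pathway probe sets changed numbered 5 at 0.01, 27 at 0.1, 22 with trimmed mean scaling, 55 with centring, 5 with no filter, 5 without trend and 3 to 20 without single arrays, against 14 as reported. With the replicate number as a block, 3122 probe sets changed, with 7 maintenance and 33 pathway probe sets among them. The labels do not pair the arrays (correlation of deviations 0.17). The cause of these shifts was not tested. A lone array was assumed to vary like the other group. Dim probe sets of Tet1, Tet3, Hells, Dnmt3a and Dnmt3b are limited by their low signal, as is the dimmer Uhrf1 set with progesterone. The de novo and TET sets were more often dim than the maintenance sets. In the upper 25% of probe sets by level, 4 of 6 maintenance sets were called lower and 0 of 4 de novo and TET sets were called.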
